A study of Mus musculus with 32 samples.

Results

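The 10 genes described here encode the transcription factor NRF2 (Nfe2l2), its inhibitor KEAP1 (Keap1) and 8 enzymes or transporters of the antioxidant response that NRF2 is known to switch on (Nqo1, Hmox1, Gclc, Gclm, Txnrd1, Srxn1, Slc7a11 and Gsr). They were taken by symbol from a table of 32285 genes, and all 10 were found and were tested in every comparison. Bulk RNA sequencing had been done on 32 whole bladders, each library made from total RNA of 1 bladder, all from female C57BL/6 mice. Of the untreated mice, 6 were young (2 months of age), 5 middle-aged (10 months) and 6 old (26 months). A further 3 groups, also 26 months old when taken, had been gavaged from 21 to 26 months of age on 3 consecutive days in each month. They received water (n = 5), vehicle (ethanol at 10%, PEG-400 at 30% and Phosal 50 PG at 60%, n = 4) or D + Q in that vehicle (dasatinib at 5 mg/kg/day and quercetin at 50 mg/kg/day, n = 6). D + Q is a senolytic pair, that is, agents meant to remove senescent cells, and the mice rested for some days after the last dose, so acute responses to a dose were not sampled. Every group carried the same genetic background and no transgene or deletion is given.

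In unstressed cells KEAP1 holds NRF2 in the cytoplasm and hands it to a CUL3 ubiquitin ligase for degradation. Oxidants and electrophiles modify cysteines of KEAP1, NRF2 escapes, pairs with a small MAF protein in the nucleus and binds antioxidant response elements (AREs) near its target genes, while BACH1 competes for the same elements. The pathway is therefore controlled largely at the level of NRF2 protein, which RNA sequencing does not measure. The bladder lining is exposed to electrophiles and other waste concentrated in urine, and the urothelium is known to carry many phase II detoxification enzymes.

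Counts summed over genes were 15088372 to 52650259 per bladder (median 34074787), and the 3 shallowest were young replicates 3 and 4 and water-treated replicate 1. Mitochondrial transcripts took 2.12 to 3.32% of counts, and no pair of bladders had identical counts. The labels give no sequencing batch. Markers of urothelium (7 genes, 4424 to 5901 summed CPM) and of smooth muscle (6 genes, 23610 to 37950 summed CPM) were present in every bladder, which fits the label of whole bladder. CPM here are counts per 1000000 after TMM scaling (a correction for differences in library composition), and TPM are also divided by gene length. Fold changes are on the log2 scale with their standard error (SE), and adjusted p-values run over all genes tested, with a threshold of 0.05. In a whole bladder, fewer cells of a type and less RNA per cell cannot be told apart.

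Per length of transcript, the regulator and the quinone reductase were the most abundant of the 10. Nfe2l2 averaged 265 TPM over the 32 bladders and exceeded 98.6% of all genes in the table. Nqo1, which reduces quinones with 2 electrons at a time, averaged 225.3 TPM. Gclc, the catalytic subunit of glutamate-cysteine ligase that commits cysteine to glutathione, averaged 112.8 TPM, while its modifier subunit Gclm averaged 34.86 TPM. The remaining enzymes lay between these levels, with Gsr (glutathione reductase) at 70.68 TPM, Srxn1 (sulfiredoxin, which repairs overoxidised peroxiredoxins) at 57.89 TPM, Txnrd1 (cytosolic thioredoxin reductase) at 47.19 TPM and Hmox1 (heme oxygenase 1) at 46.68 TPM. Keap1 averaged 41.9 TPM. Slc7a11, the cystine importer xCT that brings in the precursor of glutathione, stood far below the others at 0.805 TPM and rested on 17 to 194 counts per bladder. Its values therefore carry more counting error than those of the other 9 genes, each of which had at least 213 counts in every bladder.

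**Figure D1:**
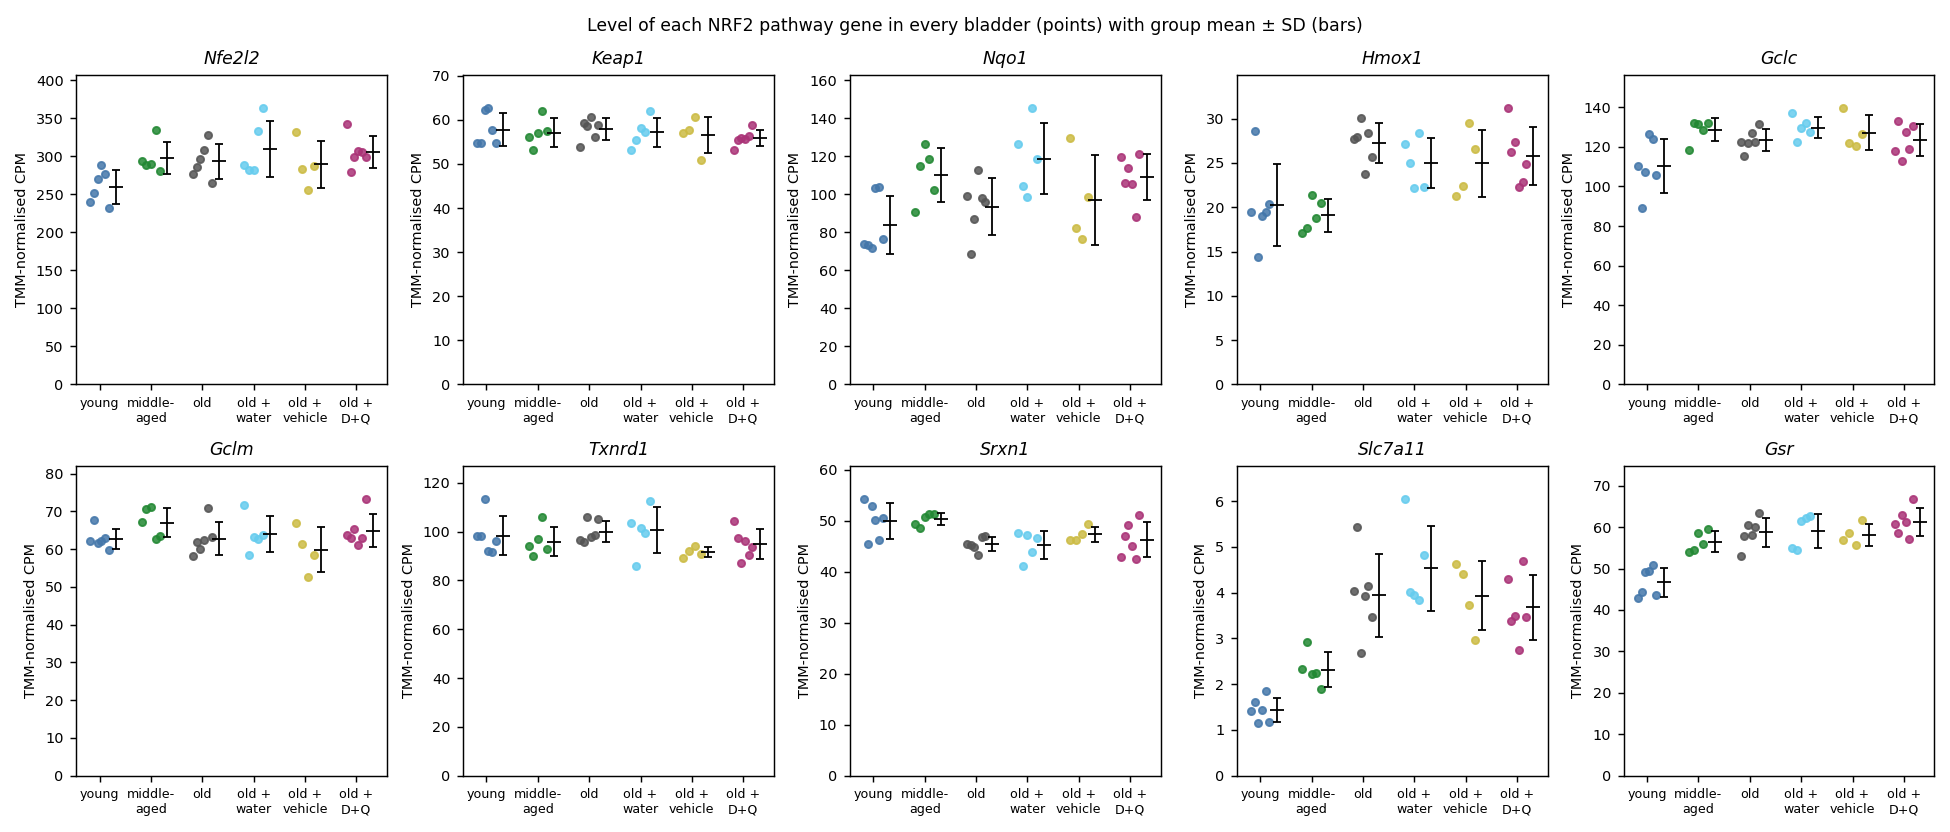
TMM-normalised CPM (vertical axes, starting at 0) of the 10 genes in each of the 32 bladders, by group along the horizontal axes; points are bladders and black bars are the group mean ± SD. Slc7a11 and Gsr show young bladders below every 26-month bladder, Hmox1 steps up between middle-aged and old, and of the groups at 26 months only the untreated and vehicle-treated bladders for Txnrd1 do not overlap.

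Slc7a11 showed the largest change with age of the 10 genes. The 6 young bladders held 1.15, 1.18, 1.41, 1.43, 1.61 and 1.85 CPM. The 5 middle-aged bladders held 1.903, 2.22, 2.23, 2.33 and 2.93 CPM, and the 6 untreated old bladders 2.68, 3.46, 3.93, 4.03, 4.14 and 5.44 CPM. Every middle-aged bladder lay above every young one, and only the lowest old bladder fell within the middle-aged range. From young to old the gene rose 2.72-fold, or 1.44 in log2 (SE 0.17, adjusted p = 6.22e-05, edgeR quasi-likelihood test). The step from young to middle-aged was 0.66 on the log2 scale (SE 0.17, adjusted p = 0.0247) and the step from middle-aged to old was 0.79 (SE 0.17, adjusted p = 0.00416). The first step lost its call with limma on the deposited log2 values (0.67, adjusted p = 0.0777), with the replicate number as a block (0.61, adjusted p = 0.101, by title, and 0.62, adjusted p = 0.0609, by column) and without middle-aged replicate 1, 2 or 3 or young replicate 6 (0.56 to 0.68, adjusted p = 0.0509 to 0.0689). The second step kept its call in all 19 alternatives and the change over both in all 21. The gene lies on chromosome 3 of mm10 (ENSMUSG00000027737, 49892526 to 50443614, minus strand), and a gene on the other strand within its span, Gm37854, shares no exon with it.

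The RefSeq promoter of Slc7a11 is shown because the gene is a known target of both NRF2 and ATF4, the transcription factor of amino acid starvation. Capitals mark the 2 matches to the amino acid response element TGATGNAA, which face each other at bases -66 to -59 and -47 to -40 from the start. The sequence (GRCm38.p6, chr3:50443564-50443863, minus strand) was:
Slc7a11: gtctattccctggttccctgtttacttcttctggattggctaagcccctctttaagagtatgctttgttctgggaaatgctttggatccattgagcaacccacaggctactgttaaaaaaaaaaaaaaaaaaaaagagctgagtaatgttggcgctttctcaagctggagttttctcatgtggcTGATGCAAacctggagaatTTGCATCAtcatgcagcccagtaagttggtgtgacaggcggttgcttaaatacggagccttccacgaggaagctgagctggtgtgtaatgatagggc
Of 32851 promoters of the same length, 3.97% held this motif. No match to the ARE core TGACNNNGC was found in the 300 bases.

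Gsr, which returns oxidised glutathione to its reduced form at the expense of NADPH, rose early and held its level. The young bladders held 42.9, 43.5, 44.4, 49.1, 49.3 and 50.9 CPM. The middle-aged bladders held 53.9, 54.5, 56.0, 58.6 and 59.6 CPM, and the untreated old bladders 52.99, 57.8, 58.0, 59.9, 60.5 and 63.5 CPM. No young bladder overlapped with either older group, while the older groups overlapped with each other. The rise was 1.20-fold from young to middle-aged (log2 fold change 0.27, SE 0.06, adjusted p = 0.0124) and 1.26-fold from young to old (log2 fold change 0.34, SE 0.05, adjusted p = 0.000445). Between middle-aged and old bladders the log2 difference was 0.08 (95% interval -0.01 to 0.18, adjusted p = 0.203). Both calls for Gsr held in every alternative tried, 20 for the first and 21 for the second. Gsr lies on chromosome 8 (ENSMUSG00000031584, 33652523 to 33698163, plus strand).

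Hmox1, which opens the heme ring and releases iron, carbon monoxide and biliverdin, was higher only after middle age. Middle-aged bladders held 17.1, 17.6, 18.8, 20.4 and 21.4 CPM and untreated old bladders 23.8, 25.7, 27.7, 28.0, 28.4 and 30.1 CPM, with no overlap. The log2 fold change was 0.54 (SE 0.07, adjusted p = 0.000198), or 1.45-fold, and it passed in all 19 alternatives, at 0.49 to 0.58. Young bladders held 14.4, 19.0, 19.5, 19.5 and 20.4 CPM, and the sixth, young replicate 2, held 28.6 CPM and lay within the old range. Against young bladders the rise in old was 0.43 on the log2 scale (SE 0.13, adjusted p = 0.0231). It was 0.56 (adjusted p = 0.000644) without young replicate 2, and 0.31 (adjusted p = 0.0633) without young replicates 3 and 4, the shallowest of the group. Middle-aged against young gave -0.10 (95% interval -0.39 to 0.18, adjusted p = 0.663). Hmox1 lies on chromosome 8 (ENSMUSG00000005413, 75093621 to 75100589, plus strand).

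Macrophage markers were also higher in old than in middle-aged bladders. Macrophages recycle heme and are known to express Hmox1 strongly. The summed level of 7 macrophage genes (Adgre1, Csf1r, Cd68, Mrc1, C1qa, C1qb and Cd163) was 428.0 to 508.4 CPM in middle-aged and 570.8 to 916.9 CPM in untreated old bladders, and 6 of the 7 passed the test upwards (2 of 7 in old against young, 0 of 7 in middle-aged against young). Young replicate 2, the young bladder with the most Hmox1, also had the highest macrophage sum of its group (825.4 CPM, the other 5 at 431.0 to 571.3 CPM). The same held for untreated old replicate 3 (30.1 CPM of Hmox1, 916.9 CPM of macrophage genes) and vehicle-treated replicate 3 (29.5 and 786.1 CPM). In the other 3 groups the bladder with the most Hmox1 was not the one with the most macrophage RNA. Middle-aged replicate 3 (21.4 CPM of Hmox1) had the lowest macrophage sum of its group, 428.0 CPM, and water-treated replicate 4 (28.4 CPM) and D + Q replicate 1 (31.2 CPM, the most of all) had sums of 614.0 and 585.8 CPM, within the ranges of their groups. Over the 32 bladders, after removing group means, Hmox1 and the macrophage sum on a log2 scale had a Pearson r of 0.61, and the points share library depth and tissue make-up. Neutrophil (0.57), B cell (0.47), adipocyte (0.45), red blood cell (0.43) and T cell (0.42) sums also had an r above 0.4 with Hmox1. The other 9 genes ranged from -0.59 (Gclc) to 0.12 (Txnrd1) with the same sum. Markers of T cells (5 of 5), B cells (4 of 4) and plasma cells (3 of 4) also rose from middle-aged to old. The part of any of these cells in the Hmox1 result was not tested.

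Srxn1 was the only one of the 10 that fell in any comparison, and the fall was small. Middle-aged bladders held 48.6, 49.4, 50.8, 51.2 and 51.3 CPM and untreated old bladders 43.2, 44.8, 45.3, 45.5, 46.8 and 47.0 CPM, again without overlap. The log2 fold change was -0.12 (SE 0.03, adjusted p = 0.00976), or 8.16% less. It lost its call when all 6 groups shared a fit (-0.12, adjusted p = 0.101) and with the block by column number (-0.12, adjusted p = 0.0537), and kept it in the other 17 alternatives. Young bladders spread more widely, from 45.5 to 54.3 CPM, and against them the difference in old bladders was -0.13 (adjusted p = 0.0631). This passed with DESeq2, limma and all 6 groups in a fit, and without young replicate 2 (-0.15, adjusted p = 0.0322) or 5 (-0.16, adjusted p = 0.0275). Of the 7 urothelial markers, 3 also fell from middle-aged to old, and within groups Srxn1 had its highest r over the marker lists with the urothelial sum (0.59, 32 bladders). Urothelial sums were 4911 to 5661 CPM in middle-aged and 4588 to 4945 CPM in old bladders. The part of this in the Srxn1 result was not tested. Srxn1 lies on chromosome 2 (ENSMUSG00000032802, 152105516 to 152111376, plus strand).

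The promoter of Srxn1 is shown because it held the most motif matches of the 9 member promoters. Capitals mark 2 matches to the AP-1 motif TGANTCA at bases -102 to -96 and -45 to -39, and 1 match to the ARE core, on the other strand, at bases 29 to 37. The sequence (GRCm38.p6, chr2:152105274-152105573, plus strand) was:
Srxn1: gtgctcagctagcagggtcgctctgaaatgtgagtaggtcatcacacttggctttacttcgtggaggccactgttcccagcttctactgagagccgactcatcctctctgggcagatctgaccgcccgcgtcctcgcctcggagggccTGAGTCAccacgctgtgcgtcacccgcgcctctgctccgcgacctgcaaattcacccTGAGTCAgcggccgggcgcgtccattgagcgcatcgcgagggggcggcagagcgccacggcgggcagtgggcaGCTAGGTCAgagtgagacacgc
Among all 32851 RefSeq promoters, 7.81% held the AP-1 motif and 12.4% the ARE core on either strand. Of the members, 7 had a RefSeq promoter, and the ARE core was matched in those of Nfe2l2 (bases -240 to -232), Gclm (-134 to -126), Txnrd1 (the second of its 3 promoters, -92 to -84) and Srxn1. The matched letters were TGACTCCGC in Nfe2l2, GCACCGTCA in Gclm, GCTTTGTCA in Txnrd1 and GCTAGGTCA in Srxn1, the last 3 read from the other strand. Slc7a11, Nqo1 and Keap1 had none in this window. Hmox1, Gclc and Gsr had no entry. Only the letters TGACNNNGC were searched as the ARE core, so elements of other spelling were not counted. A match is a description of letters, not of binding.

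Nqo1 passed narrowly from young to middle-aged and in no other comparison. Young bladders held 72.0, 73.5, 74.1, 76.6, 103.5 and 103.7 CPM and middle-aged bladders 90.6, 102.1, 114.7, 118.4 and 126.5 CPM. The ranges overlapped through the 2 high young bladders. The log2 fold change of 0.39 (SE 0.12) had an adjusted p of 0.04998, directly under the threshold of 0.05. It lost the call in 12 of 20 alternatives, among them RLE size factors (0.38, adjusted p = 0.0519) and the omission of middle-aged replicate 2, 3, 4 or 5 or young replicate 1, 2, 3 or 6 (0.33 to 0.42, adjusted p = 0.0808 to 0.125). Untreated old bladders were at 68.4 to 112.7 CPM, and old against young gave 0.16 (95% interval -0.10 to 0.43, adjusted p = 0.377). Nqo1 lies on chromosome 8 (ENSMUSG00000003849, 107388225 to 107403206, minus strand).

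Neither regulator passed between ages. In the 6 young bladders Nfe2l2 averaged 259.8 ± 22.1 CPM (SD). The 5 middle-aged bladders averaged 297.7 ± 21.0 CPM and the 6 old ones, with a range of 265.4 to 327.7, averaged 293.3 CPM. The log2 difference of old from young was 0.18 (95% interval 0.05 to 0.31) with an adjusted p of 0.0509. It passed with DESeq2 (adjusted p = 0.0297), with genes of at least 10 counts in every bladder (adjusted p = 0.0380), without the shallow bladders (0.23, adjusted p = 0.0181), with the replicate block (adjusted p = 0.0107) and without young replicate 4 (0.21, adjusted p = 0.0224) or old replicate 6 (0.21, adjusted p = 0.0343). Middle-aged against young gave 0.19 (adjusted p = 0.0870) and passed without young replicate 4 (0.21, adjusted p = 0.0368) and without both shallow young bladders (0.24, adjusted p = 0.0231). For Keap1 the mean was 57.8 CPM at 2 months, 57.1 CPM at 10 and 57.9 CPM at 26, and the interval of old against young was -0.09 to 0.11. Nfe2l2 lies on chromosome 2 (ENSMUSG00000015839, 75675513 to 75704641, minus strand). Keap1 lies on chromosome 9 (ENSMUSG00000003308, 21229730 to 21239361, minus strand), and its exons overlap those of Gm16754 on the other strand, so that reads of the pair could be mixed if strand was not used in counting, which is not given in the sources used here.

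The glutamate-cysteine ligase subunits and thioredoxin reductase did not pass between ages. Gclc went from 110.6 CPM in young to 128.6 CPM in middle-aged bladders (log2 difference 0.21, adjusted p = 0.0970) and stood at 123.5 CPM in old ones. Without young replicate 4 the middle-aged difference passed (0.25, adjusted p = 0.0350), as it did without the shallow bladders (0.25, adjusted p = 0.0399) and in the fit of all 6 groups (0.20, adjusted p = 0.0262). Old against young was 0.17 (adjusted p = 0.101), and the same 3 alternatives made it pass (0.16 to 0.21, adjusted p = 0.0324 to 0.0474). Gclm averaged 62.8 CPM in the young group, 67.0 in the middle-aged and 62.8 in the old, and Txnrd1 averaged 98.2, 95.9 and 100 CPM in that order. Old against middle-aged gave 0.09 for Txnrd1 (adjusted p = 0.177), which passed without middle-aged replicate 4 (0.11, adjusted p = 0.0427). For old against young, the 95% intervals were -0.10 to 0.11 for Gclm and -0.08 to 0.15 for Txnrd1. Gclc lies on chromosome 9 (ENSMUSG00000032350, 77754535 to 77794485), Gclm on chromosome 3 (ENSMUSG00000028124, 122245557 to 122270732) and Txnrd1 on chromosome 10 (ENSMUSG00000020250, 82833951 to 82897712), all on the plus strand. Exons of Gclm overlap those of Gm17494 on the other strand.

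**Figure D2:**
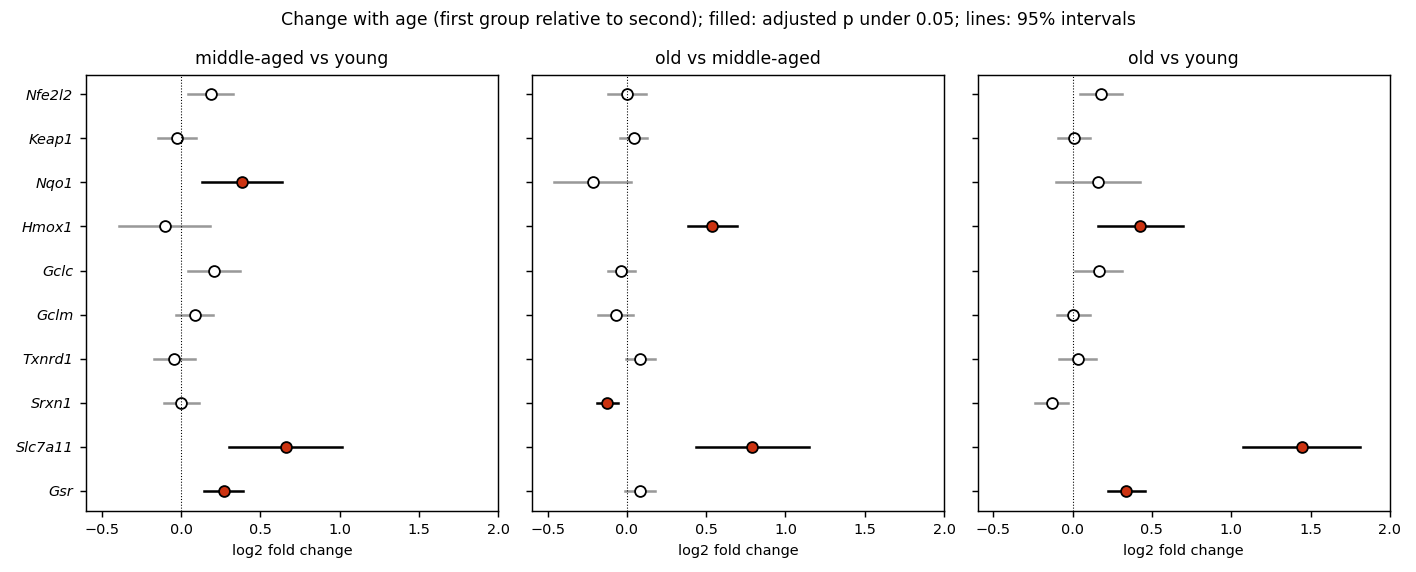
Log2 fold changes of the 10 genes (horizontal axes, first group relative to second) between young, middle-aged and old bladders, with 95% intervals as lines; red points passed the test (open points did not). Slc7a11 is red in all 3 panels, and Srxn1 in old vs middle-aged is the only red point below 0.

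Counted over the list, 3 of 10 genes passed from young to middle-aged, all upwards (Nqo1, Slc7a11 and Gsr), beside 10.8% of all 16754 genes tested (4.96% upwards, 5.85% downwards). At an unadjusted p under 0.05 there were 5 of 10 (27.2% of all genes), and 2 of 10 (7.07%) did not overlap between groups. The median log2 fold change of the 10 was 0.14, against 0.00 over all genes. From middle-aged to old, 3 of 10 passed (Hmox1 and Slc7a11 up, Srxn1 down), beside 24.0% of 17156 genes (13.0% up, 11.0% down, or 2231 and 1879 genes, and 1670 and 2401 with limma on the deposited log2 values). The groups did not overlap for 2 of 10 (15.8% of all genes), and the median was 0.02 against -0.01 over all genes. From young to old, 3 of 10 passed upwards (Slc7a11, Gsr and Hmox1), beside 25.1% of 16873 genes (12.6% upwards, 12.4% downwards), with a median of 0.16 against 0.00. Here 6 of 10 (36.3% of all genes) had an unadjusted p under 0.05, and 2 of 10 (12.8%) did not overlap. The 30.0% called is near the share of all genes in the last 2 comparisons. The 3 comparisons share groups pairwise and are not independent. The young to middle-aged count was 1 with limma (8.76% of all genes) and with the replicate block (4.26%). With limma it was thus near its background. It was also 1 without middle-aged replicate 2 or 3 or young replicate 6. There 882 of 16875, 972 of 16848 and 942 of 16676 genes passed. It was 5 without young replicate 4 (2794 of 16711 genes) and without young replicates 3 and 4 together (22.0%). The young to old count was 5 with DESeq2 (28.8%), with all 6 groups in a fit (28.0%) and without young replicate 4 (4540 of 17065 genes). Marker sums of fibroblasts were 10900 to 18910 CPM in young and 7667 to 9584 CPM in middle-aged bladders, with 3 of 5 markers lower, and within groups Gsr had an r of -0.46, Gclc of -0.60, Nqo1 of -0.34 and Slc7a11 of 0.04 with this sum. The part of this in the young to middle-aged results was not tested.

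The levels reached in untreated old bladders were also seen in the gavaged ones. Over all 21 bladders taken at 26 months, Slc7a11 was at 2.68 to 6.05 CPM (young at most 1.85) and Gsr at 52.99 to 66.8 CPM (young at most 50.9), so that for these 2 of the 10 genes no bladder overlapped with the young group. Of 18093 genes, 4.18% were separated in this way. Hmox1 was above the highest middle-aged bladder (21.4 CPM) in 20 of the 21, the exception being vehicle-treated replicate 1 at 21.3 CPM. Srxn1 was below the lowest middle-aged bladder (48.6 CPM) in 18 of the 21, except vehicle-treated replicate 4 (49.5 CPM) and D + Q replicates 3 and 6 (49.2 and 51.05 CPM). Slc7a11 was above the highest middle-aged bladder in 19 of the 21, except untreated old replicate 3 (2.68 CPM) and D + Q replicate 4 (2.74 CPM). These counts include the 6 untreated old bladders whose tests gave the calls, so only the gavaged bladders among them add new values. From middle-aged to old 24.0% of all genes had passed, and the share of all genes with counts like these was not computed. None of the 10 genes was fully separated from the middle-aged group, beside 2.8% of all genes.

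No member passed in the comparisons made among the groups at 26 months, which did not include vehicle against water. Against untreated old bladders, 0 of 10 genes passed by edgeR in water-treated bladders (beside 1.0% of all genes, 0.487% higher and 0.516% lower). The same 0 of 10 passed in vehicle-treated (0.0%) and D + Q-treated bladders (0.0%). With D + Q, 0 of 10 also passed by edgeR against vehicle (0.0%) and against water (0.0%). DESeq2 likewise called 0 of 10 in each of these comparisons, but its shares of all genes were larger. They were 4.08% (water), 0.757% (vehicle) and 1.09% (D + Q) against untreated old. For D + Q they were 0.0637% against vehicle and 0.402% against water. At an unadjusted p under 0.05 there was 1 of 10 genes with water (Nqo1, beside 16.0% of all genes), 1 with vehicle (Txnrd1, 8.39%) and 0 in the comparisons of D + Q with untreated old (12.9%), vehicle (4.18%) and water (7.82%). Ranges did not overlap for 0 of 10 with water (3.11% of all genes), 1 with vehicle (2.42%) and 0 with D + Q against untreated old (0.616%), vehicle (0.996%) or water (1.15%). These comparisons share their control bladders.

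Nqo1 had the largest difference in 3 of these 5 comparisons. Water-treated bladders held 98.5, 104.4, 118.8, 126.7 and 145.6 CPM against 68.4, 86.8, 96.0, 98.0, 99.3 and 112.7 CPM in untreated old bladders. The groups overlapped, with a log2 difference of 0.33 (SE 0.12, 95% interval 0.06 to 0.60, unadjusted p = 0.0191, adjusted p = 0.215). D + Q-treated bladders held 88.0, 105.4, 106.0, 114.0, 119.9 and 121.2 CPM, a difference of 0.22 from untreated old (SE 0.11, 95% interval -0.01 to 0.45, adjusted p = 0.399). Vehicle-treated bladders held 76.6, 82.5, 98.8 and 129.6 CPM, and D + Q against vehicle gave 0.18 (SE 0.14, 95% interval -0.12 to 0.48, adjusted p = 0.994). Water-treated bladders thus had the highest group mean, 118.8 CPM, and D + Q against water gave -0.11 (95% interval -0.34 to 0.11).

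Txnrd1 was lower in vehicle-treated bladders (89.2, 90.8, 92.1 and 93.9 CPM) than in untreated old bladders (95.9, 96.5, 97.8, 98.6, 105.2 and 106.1 CPM). The ranges did not overlap. The log2 difference of -0.14 (95% interval -0.22 to -0.05) had an unadjusted p of 0.00422 and an adjusted p of 0.414, and no gene of the table passed in this comparison. The largest difference of the 10 with vehicle was that of Hmox1 (-0.14, SE 0.10, adjusted p = 0.702). Its 4 vehicle-treated bladders held 21.3, 22.4, 26.6 and 29.5 CPM and overlapped with the old range.

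Slc7a11 and Hmox1, which had risen by old age, had overlapping ranges in the untreated old and the D + Q groups. Slc7a11 was 2.74, 3.37, 3.47, 3.48, 4.30 and 4.70 CPM with D + Q, and the difference from untreated old bladders was -0.11 (95% interval -0.46 to 0.25, adjusted p = 0.795). Against water (3.83, 3.94, 4.00, 4.83 and 6.05 CPM) it was -0.29 (SE 0.16, 95% interval -0.64 to 0.07, adjusted p = 0.696), the largest of the 10 in that comparison. Hmox1 was 22.3, 22.8, 24.9, 26.2, 27.3 and 31.2 CPM with D + Q, -0.08 from untreated old (95% interval -0.26 to 0.09). For Gsr the difference from untreated old was 0.06 (95% interval -0.04 to 0.16), for Nfe2l2 0.06 (-0.06 to 0.18) and for Keap1 -0.05 (-0.12 to 0.02). These intervals bound the changes that the design could have missed, and they do not show that the groups are equal. Red blood cell transcripts were uneven, at 223.2 to 3460 summed CPM with D + Q and 70.7 to 569.0 CPM in untreated old bladders. In the D + Q bladder with the most of them, replicate 6, Hmox1 was 24.9 CPM, within the range of its group.

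**Figure D3:**
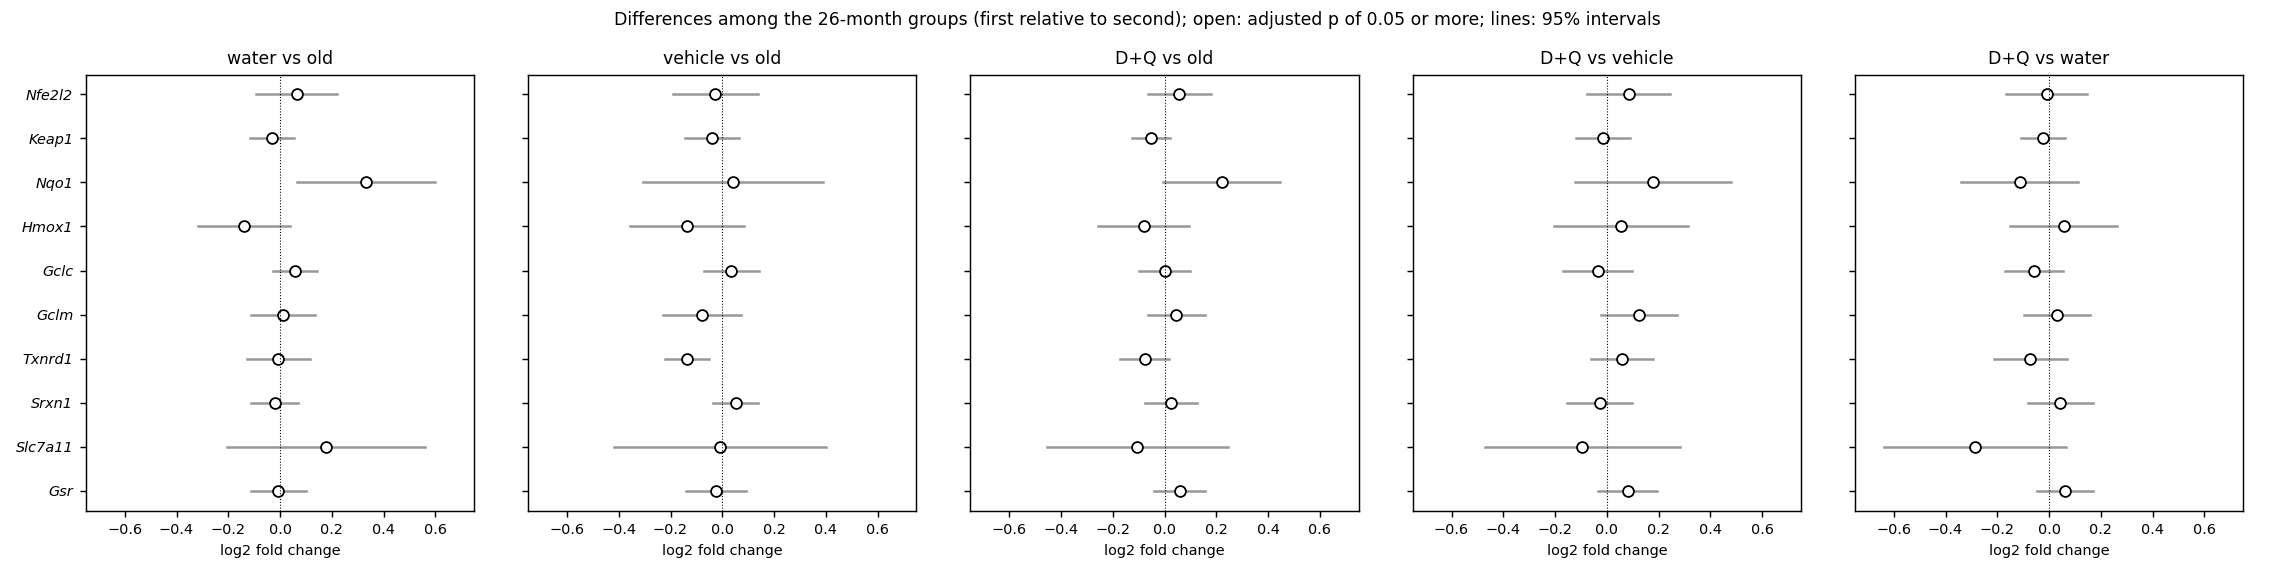
Log2 differences of the 10 genes (horizontal axes) among the groups at 26 months, with 95% intervals as lines; open points have an adjusted p of 0.05 or more. All points are open, and the interval excludes 0 only for Nqo1 in water vs old and Txnrd1 in vehicle vs old.

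Around these 10, a list of 67 further genes of the pathway was read from the same fits, and all 67 were tested. From young to middle-aged 13 rose and 1 fell (20.9%), from middle-aged to old 8 rose and 11 fell (28.4%), and from young to old 18 rose and 6 fell (35.8%). Over all genes the shares called were 10.8%, 24.0% and 25.1%, so the second is close to its background. The median log2 fold changes were 0.08, -0.02 and 0.06 against 0.00, -0.01 and 0.00 over all genes. The first count was 8 or 9 without middle-aged replicate 1, 2, 3 or 5 or young replicate 1 or 6. It was 25 without young replicate 4. Over all genes 728 to 1172 and 2794 were then called. The second was 11 without middle-aged replicate 5 (3430 of 17269 over all genes). The last was 12 without old replicate 2, 14 without old replicate 1 and 15 without young replicate 2 or 6. Beside these, 3466 of 16924, 3570 of 17024, 4122 of 16959 and 3547 of 17045 genes were called. In these settings the last share was near its background.

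Of 11 genes for quinones and aldehydes 6 rose and 0 fell from young to old bladders (median 0.24), beside 12.6% of all genes higher and 12.4% lower. Aldh3a1, an aldehyde dehydrogenase, rose from 127.7 ± 47.9 to 311.6 ± 35.8 CPM (SD, n = 6 each, log2 fold change 1.30, adjusted p = 0.000372). Adh7, an alcohol dehydrogenase of epithelia, rose by 0.53 (adjusted p = 0.00118). Of 15 glutathione genes 6 rose and 1 fell. Gpx2, the epithelial glutathione peroxidase, rose from 6.6 ± 1.81 to 16.5 ± 1.54 CPM (log2 fold change 1.34, adjusted p = 3.58e-05), and Gsta3, a glutathione transferase, rose by 0.67 (adjusted p = 0.000543). Much of this was already present at middle age, where Gpx2 was 1.07 (adjusted p = 0.00331), Aldh3a1 0.99 (adjusted p = 0.0132), Ephx1, the microsomal epoxide hydrolase, 0.49 (adjusted p = 0.04998) and Gsta3 0.49 (adjusted p = 0.0190) above young on the log2 scale. Ephx1 passed narrowly, directly under the threshold of 0.05. Its young bladders (84.7 to 166.6 CPM) overlapped with the middle-aged ones (149.8 to 178.8 CPM). Of the urothelial markers 0 of 7 passed in either comparison with young bladders by edgeR. Fibroblast (4 of 5), Schwann cell (3 of 3) and skeletal muscle (3 of 3 tested) markers were lower in old than in young bladders, with fibroblast sums of 7105 to 8285 CPM in old ones. The part of these cells in the pathway genes was not tested.

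Of 6 enzymes that supply NADPH, 3 were higher in middle-aged and 3 in old than in young bladders, and 0 were lower. Of all genes 4.96% and 12.6% were higher in these comparisons, and 5.85% and 12.4% were lower. The old bladders had more Idh1 (0.48, adjusted p = 1.89e-05), Pgd (0.22, adjusted p = 0.00418) and G6pdx (0.13, adjusted p = 0.0473). Of 12 thioredoxin and peroxiredoxin genes 0 rose, 4 fell and 8 did not pass from young to old (median -0.04), beside the same 12.6% of all genes higher and 12.4% lower. The 4 were Txnip, an inhibitor of thioredoxin (-0.31, adjusted p = 0.0239), the peroxiredoxins Prdx5 (-0.27, adjusted p = 0.000682) and Prdx4 (-0.23, adjusted p = 0.0386), and thioredoxin itself, Txn1 (-0.20, adjusted p = 0.000774). The 7 genes of these 2 groups were named after their values were seen.

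Of 12 regulators and partners of NRF2, 4 rose and 3 fell from middle-aged to old bladders (2 and 0 from young to middle-aged), beside 13.0% of all genes up and 11.0% down. Among all 67 genes the largest changes there were those of Maff (0.61, adjusted p = 0.00179), Bach2 (0.46, adjusted p = 0.0341), Aldh3a1 (0.31, adjusted p = 0.0417) and Mafk (0.29, adjusted p = 0.0156). Maff and Mafk are small MAF proteins, and Bach2 is a repressor best known from lymphocytes. Markers of T and B cells were higher in old bladders, and their part in the Bach2 result was not tested. Chosen after their values were seen, Bach1, the repressor of Hmox1, rose by 0.19 (adjusted p = 0.0372), Slc3a2, the heavy chain that carries xCT to the membrane, rose by 0.24 (adjusted p = 0.0238), and Sqstm1, the autophagy adaptor that binds KEAP1, fell by 0.21 on the log2 scale (adjusted p = 0.000400) after a rise of 0.32 from young to middle-aged (adjusted p = 0.0150). The count from middle-aged to old was 5 of 67 when all 6 groups shared a fit, beside 13.9% of all genes.

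**Figure D4:**
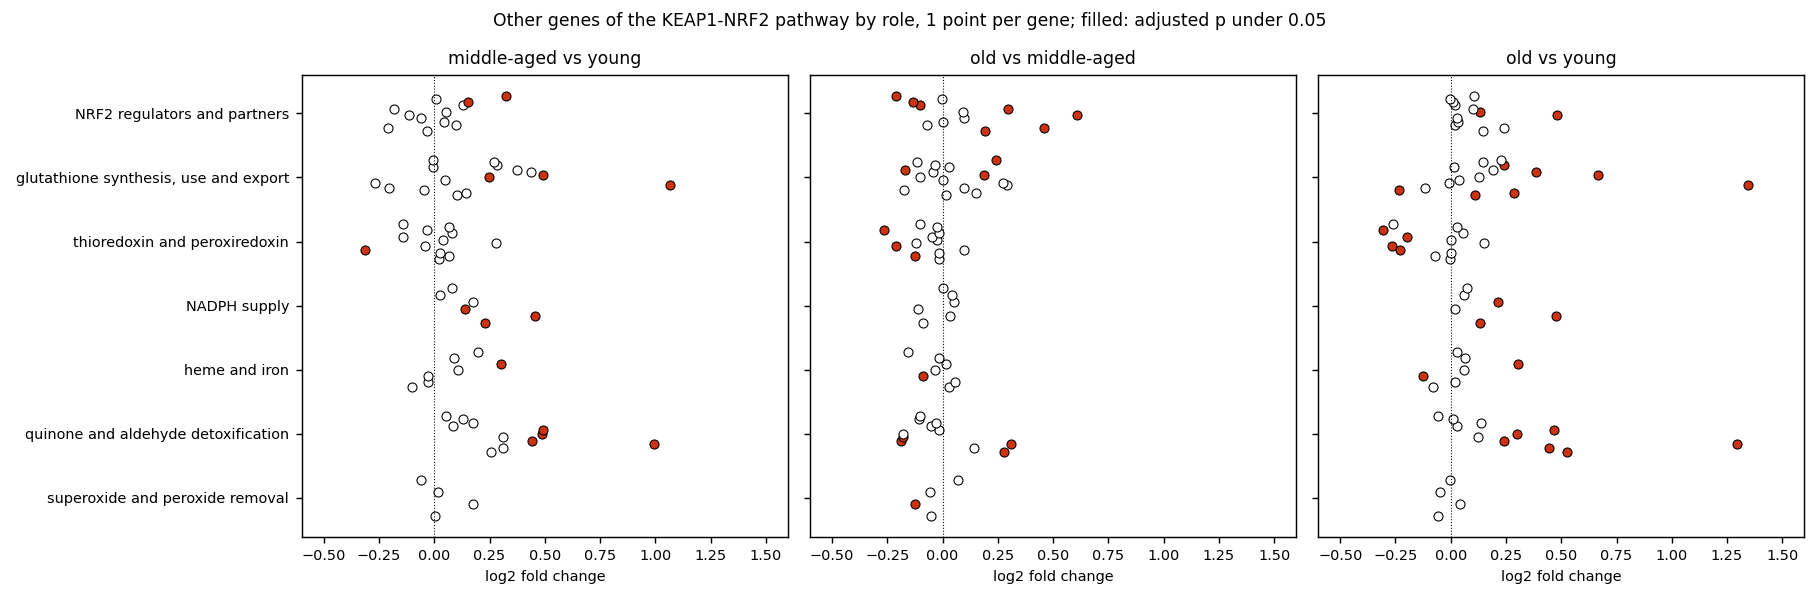
Log2 fold changes (horizontal axes) of the 67 other pathway genes between ages, arranged by role (vertical axis), with 1 point per gene; red points have an adjusted p under 0.05. In old vs young, the quinone and aldehyde row has 6 red points to the right of 0 and the thioredoxin row 4 to the left. Of all genes 12.6% were called higher and 12.4% lower there.

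Among the 67 genes 1 (1.49%, beside 1.0% of all genes) passed in water-treated against untreated old bladders, and 5 by DESeq2 (beside 4.08%). Sod1, the cytosolic superoxide dismutase, was 346.4 ± 13.3 CPM (SD, n = 5) with water and 296.5 ± 10.2 CPM (SD, n = 6) without gavage (log2 fold change 0.21, SE 0.04, adjusted p = 0.0188). It stood at 336.3 CPM with vehicle and 338.7 CPM with D + Q, where it did not pass. The count for water was 0 without old replicate 6 or water-treated replicate 1 or 5, and 2 without water-treated replicate 2. In that order, 47 of 17135, 37 of 17406, 44 of 17418 and 199 of 17356 genes were called over all genes. The count was also 0 when all 6 groups shared a fit, with limma and with either replicate block. In those settings 0 of all genes passed. By edgeR, 0 of 67 passed for vehicle or D + Q against untreated old, or for D + Q against vehicle or water (each beside 0.0% of all genes). At an unadjusted p under 0.05 there were 5 for vehicle (beside 8.39% of all genes) and 6 for D + Q (12.9%) against untreated old. There were 2 for D + Q against vehicle (4.18%) and 4 against water (7.82%). DESeq2 called 1 each for vehicle (beside 0.757% of all genes) and D + Q (1.09%) against untreated old. It called 0 for D + Q against vehicle (0.0637%) and against water (0.402%).

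Within groups the 10 genes varied together only in part. Of the 45 pairs, 28 had a positive and 17 a negative Pearson r after group means were removed from log2(CPM + 0.1), with a median of 0.15 over 32 bladders that share depth and tissue make-up. Only Nqo1 with Gclc (0.64) and Nqo1 with Nfe2l2 (0.55) were above 0.5. Nqo1 was the member most like Nfe2l2, yet 419 other genes were more like it. Hmox1 stood apart, with r of -0.39 with both Keap1 and Gclc and no r above 0.04 with any member. Of 18093 genes, those most like Nfe2l2 were St5 (0.88), Tnfaip2 (0.85) and Dnajb1 (0.85), and those most like Nqo1 were Opn1sw (0.77), 1600020E01Rik (0.70) and Max (0.68). Those most like Hmox1 were Ank2 (0.78), Rassf4 (0.77) and Gm21188 (0.73), and those most like Slc7a11 were F2rl2 (0.68), Gm13219 (0.67) and Gm49027 (0.66).

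**Figure D5:**
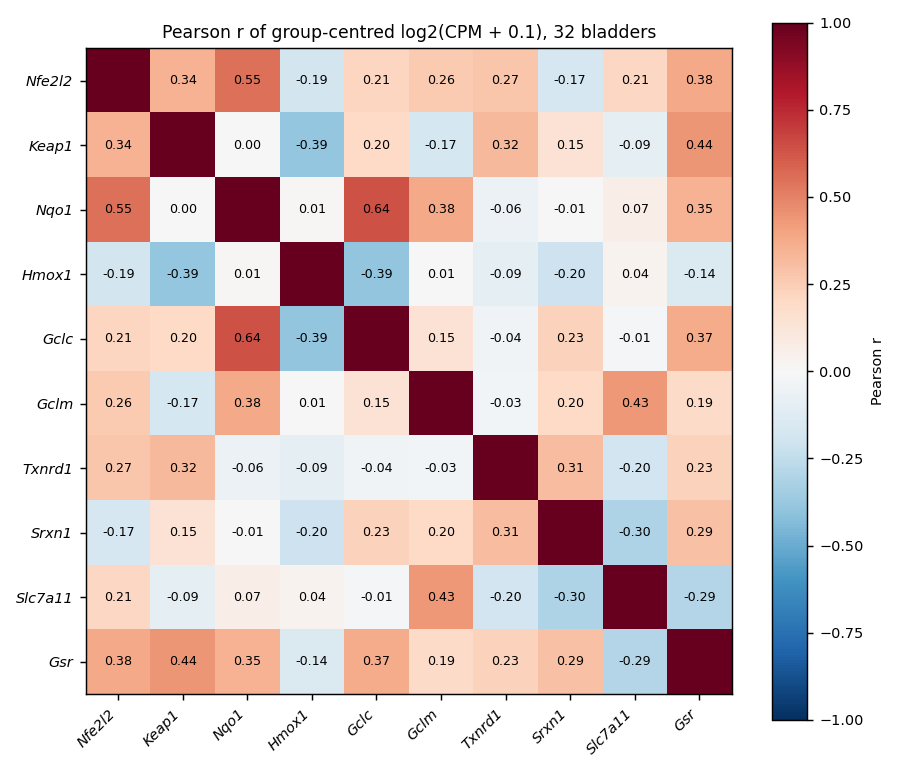
Pearson r between the 10 genes over 32 bladders after subtraction of group means on the log2(CPM + 0.1) scale, written in each cell (colour scale from -1 to 1). Nqo1 has an r of 0.64 with Gclc and 0.55 with Nfe2l2, and Hmox1 has none above 0.04 with another gene.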

How the data were processed

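The authors made 1 stranded total RNA library per bladder, aligned the reads with STAR 2.7.3 to mm10, and deposited raw featureCounts counts per gene, beside exon lengths in bases. The strandedness of counting is not given in the sources used here. A second table that the authors deposited holds log2 values, which were recomputed to within 3.6e-15 as the log2 of (count + 1) divided by length and scaled to a sum of 100000 per bladder. Replicates are numbered as in the sample titles, and the columns of 6 bladders carry other numbers.

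Counts were compared with edgeR 4.0.16 (R 4.3.3, TMM, filterByExpr, quasi-likelihood test, only the bladders of the 2 groups compared), with Benjamini-Hochberg adjustment over all genes tested and a threshold of 0.05, in 8 comparisons. Intervals are 95%. CPM used TMM factors over all 32 bladders, and TPM the deposited lengths. Fits with edgeR and DESeq2 were also tried on simulated counts with 200 genes changed. Far more genes were called between ages, so this trial does not bear on single calls. P-values weigh the difference of 2 groups against the spread between bladders, which edgeR estimates with information shared over all genes. No sequencing batch is given, so none could be examined. Counting error of molecules is not known, since no molecular identifiers are named.

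The 10 genes and all lists were chosen with earlier results of these data known. Named with statistics were members past the threshold or with the largest difference, up to 4 further pathway genes per comparison with the largest change among those that passed, and the 3 genes most like Nfe2l2, Nqo1, Hmox1 and Slc7a11. Other genes, such as those given by role or for a difference that did not pass, were chosen after their values were seen. Of the 32285 genes 32158 had a symbol. Promoters of RefSeq (GRCm38.p6) span 250 bases before to 50 after the start, and motifs were searched on both strands.

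Alternatives were DESeq2 1.42.0, RLE size factors, no filter, a joint fit of all 6 groups, a minimum of 10 counts per bladder, limma 3.58.1 with trend on the deposited log2 values, a replicate block and each bladder left out. Leaving out the 3 shallowest bladders, and a block by the numbers of the columns, were added after the data were seen. The study names edgeR but not its test or filter.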

Additional observations from a re-analysis of the deposited data

Results flagged for a closer look

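In 4 of the 60 sets of values of 1 gene in 1 group, the highest or lowest bladder lay farther from the others than Dixon's 95% limit allows, which chance alone does in about 1 of 20 sets. Nfe2l2 was 334.1 CPM in middle-aged replicate 4, and the next highest was 294.4 CPM. Gclc was 118.5 CPM in middle-aged replicate 1, with the next at 128.6 CPM. Gclm was 73.28 CPM in D + Q replicate 6, with the next at 65.46 CPM, and this bladder also had the highest red blood cell sum (3460 CPM). Txnrd1 was 113.3 CPM in young replicate 3, with the next at 98.23 CPM, and this bladder was among the 3 shallowest.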

How the results depend on the processing

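The 14 log2 fold changes of Nqo1, Slc7a11, Gsr, Hmox1 and Srxn1 that were followed through the alternatives kept their direction in all of them. For other changes, such as those of Nfe2l2, Gclc and Txnrd1, only alternatives in which they passed are given, and their ranges were not followed. Replicate numbers in the titles gave no clear sign of paired bladders. Same-numbered bladders deviated from their group means with correlations of -0.296 to 0.163 over 40 pairs, 5 of them above 0.1. Weak correlations over all genes cannot exclude a shared source such as a batch. The numbers in the columns, which differ for 6 bladders, gave -0.296 to 0.221 over 40 pairs, 9 above 0.1, and in 0 comparisons was every pair above 0.1. With the replicate block, members called from young to middle-aged were 1, pathway genes called for water against old were 0, and the block moved no other count of members by over 1.5 times. A replicate block by column number (added after seeing the data) gave 0 pathway genes for water and 2 members from young to middle-aged and from middle-aged to old. Limma also gave 1 member from young to middle-aged and 0 pathway genes for water. The fit of all 6 groups gave 22 pathway genes from young to middle-aged, 5 from middle-aged to old and 0 for water, and 5 members from young to old. DESeq2 gave 5 members from young to old and 5 (water), 1 (vehicle) and 1 (D + Q) pathway genes against old. Without the 3 shallowest bladders (added after seeing the data) there were 5 members and 26 pathway genes from young to middle-aged and 0 pathway genes for water. Leaving out each bladder gave 1 to 5 members and 8 to 25 pathway genes from young to middle-aged, 3 to 4 and 11 to 21 from middle-aged to old, 3 to 5 and 12 to 25 from young to old, and 0 to 2 pathway genes for water. The calls that Nqo1, Slc7a11, Srxn1 and Hmox1 lost are given with their results, and the cause was not tested.

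Over all genes, calls from young to middle-aged were 2858 with all 6 groups in a fit, 711 with the block (870 by column number) and 3717 without the shallow bladders, against 1811, and 728 (without middle-aged replicate 5) to 2794 (without young replicate 4) with each bladder left out. From middle-aged to old they were 2519 with all 6 groups, against 4110, and limma turned 2231 higher and 1879 lower into 1670 and 2401. For water against old they were 703 with DESeq2, 99 without a filter, 37 without the shallow bladder and 0 with all 6 groups, limma or either block, against 173. DESeq2 called 132 genes for vehicle and 185 for D + Q against old, 11 for D + Q against vehicle and 69 against water, where edgeR called 0. Depth limits Slc7a11 most, at 17 to 194 counts per bladder.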
